A study of Mus musculus with 40 samples.

Results

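The hippocampi of Df(16)A/+ mice were compared with those of wild-type littermates. Df(16)A/+ mice are an engineered model of the human 22q11.2 deletion: they carry 1 normal chromosome 16 and 1 that lacks the interval from Dgcr2 to Hira. The deletion is present in every cell, so no promoter or cell type restricts it. The comparison uses the 20 hippocampal arrays of a series of 40: 10 Df(16)A/+ arrays and 10 wild-type (wt) arrays, chosen by the region and genotype in their titles. All animals were untreated males of 8 weeks on C57BL/6. The titles call the arrays of a group biological replicates, and the labels do not say whether an array holds RNA of 1 mouse or of a pool.

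Total RNA was read on Affymetrix Mouse430_2 arrays, in which a probe set is a group of short probes for 1 transcript. Values are log2 signals, so that a difference of -1 is a 2-fold fall. Of 45101 probe sets, 21153 lay above 4 (log2) in at least 10 of the 20 arrays and were tested. They include 10822 genes, each described by its brightest probe set unless another is given.

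The arrays were hybridized on 1 day in 3 runs, and runs and genotypes overlapped only in run 2. That run held 2 Df(16)A/+ arrays (replicates 1 and 2) and 9 wt arrays. Run 3 held the other 8 Df(16)A/+ arrays, and run 1 held 1 wt array (replicate 9). Genotype differences are therefore given with the run as a block, where the estimate is the difference within run 2, and beside it without a block, over all 10 against 10 arrays. Both come from limma with Benjamini-Hochberg adjustment over all 21153 probe sets, and a probe set is called at an adjusted p under 0.05. Without a block, the 8 Df(16)A/+ arrays of run 3 are set against wt arrays of other runs, so that for them genotype and run cannot be told apart. In whole tissue, fewer cells of a type and less RNA per cell cannot be told apart either.

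The deleted interval holds genes for mitochondrial enzymes, membrane proteins of neurons, nuclear proteins and Dgcr8. Dgcr8 is the RNA-binding partner of Drosha in the Microprocessor, the nuclear complex that cleaves the hairpin of a microRNA out of its long primary transcript. The rest of that transcript is then degraded, so that loss of Microprocessor activity is known to leave more of the uncleaved primary transcript. The released hairpin is trimmed by Dicer to a mature microRNA, which finds its target messenger RNAs mainly through its seed, bases 2 to 8.

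Outside the interval, 5 genes with an annotated name were called in both fits, and all 5 hold microRNA genes within their span. The mature sequences below are those that their hairpins are best known for, with the seed in capitals, from RefSeq (GRCm38.p6). For miR-23b, in the span of Aopep, the miR-23b-3p sequence was missing from the source used and is not shown. The arrays measured long RNA of these genes, and no mature microRNA was measured. Whether a probe set lies before the hairpin, in an intron or on the unspliced precursor was not checked.
mmu-miR-29b-3p, A330023F24Rik, chr1:195037091-195037113, plus strand: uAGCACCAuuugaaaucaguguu
mmu-miR-29c-3p, A330023F24Rik, chr1:195037600-195037621, plus strand: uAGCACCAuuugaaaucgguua
mmu-let-7c-5p, Lncppara, chr15:85706616-85706637, plus strand: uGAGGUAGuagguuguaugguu
mmu-let-7b-5p, Lncppara, chr15:85707325-85707346, plus strand: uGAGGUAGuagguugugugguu
mmu-miR-27b-3p, Aopep, chr13:63300760-63300780, plus strand: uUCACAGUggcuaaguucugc
mmu-miR-24-3p, Aopep, chr13:63301251-63301272, plus strand: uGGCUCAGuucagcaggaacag
mmu-miR-9-5p, C130071C03Rik, chr13:83738821-83738843, plus strand: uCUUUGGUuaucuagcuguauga
mmu-miR-22-3p, Mir22hg, chr11:75463772-75463793, plus strand: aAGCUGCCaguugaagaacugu
miR-29b and miR-29c share the seed AGCACCA, and let-7b and let-7c share GAGGUAG. The other seeds in this set differ from these and from each other.

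The arrays were alike: correlations between any pair of the 20 were 0.9766 to 0.9969, no pair was identical, and array medians were 3.55 to 3.94. The first principal component, with 27.9% of the variance, placed 7 of the 8 Df(16)A/+ arrays of run 3 on one side and both Df(16)A/+ arrays of run 2 with the 10 wt arrays and the remaining Df(16)A/+ array on the other. All 7 defining markers of hippocampal neurons (such as Neurod6, Zbtb20 and Crym) were measured, and their mean signal was 11.78 to 12.17 in Df(16)A/+ arrays and 11.7 to 11.94 in wt arrays. The 3′ minus 5′ signal of beta-actin, which grows with RNA degradation, was 1.277 ± 0.063 in Df(16)A/+ and 1.364 ± 0.165 in wt (SD, n = 10 each; permutation p = 0.147, two-sided, 100000 resamples).

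With the run as a block, 33 of 21153 probe sets were called (0.156%), 11 higher (0.052%) and 22 lower (0.104%) in Df(16)A/+. Of these, 18 belong to the deleted interval and all 18 were lower. Without a block, 1369 were called (6.47%), 1098 higher (5.19%) and 271 lower (1.28%), of which 27 belong to the interval. The fits use the same arrays, and 26 probe sets were called in both, each in the same direction: the 18 of the interval, 5 of the genes that hold microRNAs, and 3 with no single gene in the annotation. A probe set is counted in the interval only by its single annotated gene. Those with no single gene are counted outside it, and whether any of them match interval genes was not checked. The median standard error of a difference was 0.118 with the block and 0.071 without it, and 1230 probe sets with the block and 5160 without it had an unadjusted p under 0.05.

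The interval genes fell together, most of them about 2-fold. Of 46 annotated genes from Dgcr2 to Hira (chr16:17840355-18970309, GRCm38.p6), 26 were on the array and 20 were measured. With the block 14 of the 20 were lower (0.129% of all genes were called lower), with a median difference of -1.0. Without a block 18 of 20 were lower (1.55% of all genes), with a median of -1.05, or 48.3% of the wt signal. In 16 of the 20, all 10 Df(16)A/+ arrays lay below all 10 wt arrays, which held for 0.142% of all probe sets. In 17, both Df(16)A/+ arrays of run 2 lay below all 9 wt arrays of that run (2.32% of probe sets, and 3.73% for the opposite order). Run 3 minus run 2 within Df(16)A/+ had a median of -0.031 over these genes. The mean of the 20 genes, taken around their wt mean, was -0.949 and -0.906 in the Df(16)A/+ arrays of run 2, -1.044 to -0.848 in those of run 3, and -0.115 to 0.06 in wt arrays. Of the 14 genes called with the block, 7 were called without Df(16)A/+ replicate 1 and 7 without replicate 2, each of which leaves 1 Df(16)A/+ array in run 2.

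**Figure D1:**
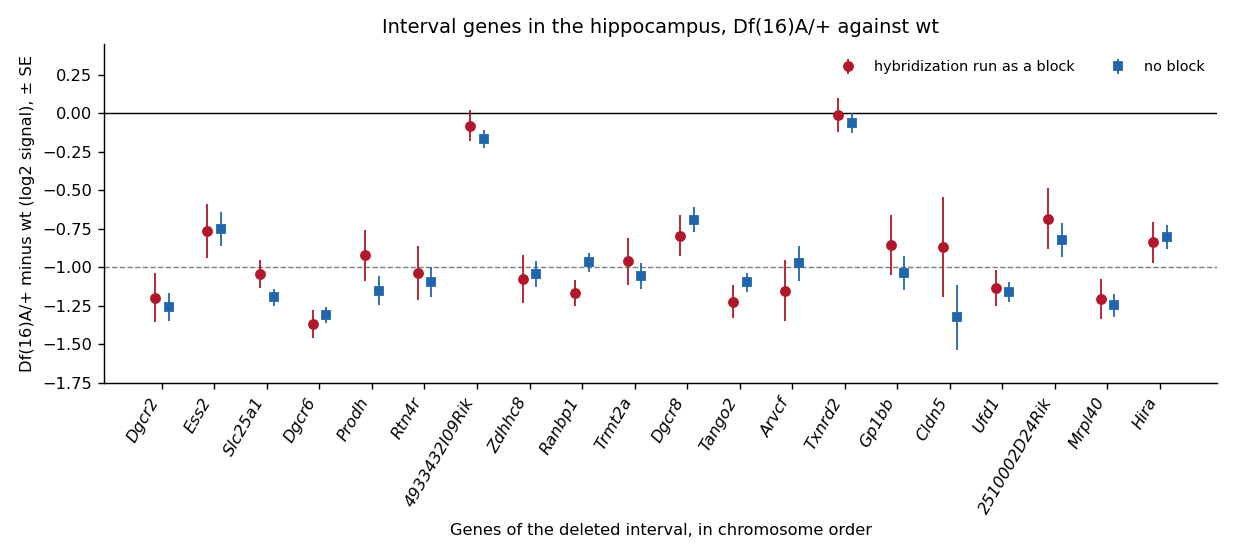
Log2 difference, Df(16)A/+ minus wt, of the 20 measured interval genes in chromosome order, with the run as a block (red circles) and without a block (blue squares); bars are standard errors and the dashed line marks -1, a 2-fold fall. Most genes lie near the dashed line in both fits, with medians of -1.0 and -1.05, and Txnrd2 and 4933432I09Rik lie near 0.

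Dgcr8 itself read 7.87 and 7.58 in the Df(16)A/+ arrays of run 2, a lowest, median and highest of 7.69, 7.83 and 8.42 in those of run 3, and 8.37, 8.52 and 8.90 in the wt arrays. A single Df(16)A/+ array of run 3 reached into the wt range. The difference was -0.79 ± 0.13 (SE) with the block (limma, adjusted p = 0.00885) and -0.69 ± 0.084 without it (adjusted p = 3.2e-05), so that 57.6% and 61.9% of the wt signal remained. A second, dimmer Dgcr8 probe set fell by 0.60 without a block (adjusted p = 1.32e-05), and with the block its difference was -0.55 (adjusted p = 0.129). Dgcr8 and Hira kept the largest shares of signal among the 14 genes called with the block.

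Genes for mitochondrial proteins were among those lost. Prodh, the proline dehydrogenase that begins proline breakdown, read 7.03 and 7.01 in Df(16)A/+ arrays of run 2 and 6.23, 6.86 and 7.05 (lowest, median, highest) in those of run 3, against 7.61, 7.95 and 8.14 in wt. The genotypes did not overlap, and the difference was -0.92 ± 0.17 with the block (limma, adjusted p = 0.0175) and -1.15 ± 0.097 without it (1.13e-07). Slc25a1, the mitochondrial citrate carrier, differed by -1.05 ± 0.092 with the block (adjusted p = 2.14e-06) and -1.20 without it. Mrpl40, a protein of the mitochondrial ribosome, differed by -1.21 and -1.25. The mitochondrial thioredoxin reductase Txnrd2 did not show the loss in its brighter probe set (-0.01 ± 0.11 with the block, adjusted p = 1, and -0.06 without it), while its second probe set differed by -0.53 with the block (adjusted p = 0.729) and fell by 0.85 without it (adjusted p = 7.6e-04). That second probe set read 3.34 to 4.23 in Df(16)A/+ and 4.24 to 5.15 in wt arrays. It lay at the lower limit of the tested range, and the wt arrays alone carried it past the filter.

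Among genes of the neuronal membrane, Rtn4r, the Nogo receptor that limits axon growth, read 6.91 and 6.56 in Df(16)A/+ arrays of run 2 and 6.12, 6.68 and 6.93 in those of run 3, against 7.47, 7.79 and 8.13 in wt. Every Df(16)A/+ array was below every wt array, with a difference of -1.04 ± 0.17 with the block (limma, adjusted p = 0.00885) and -1.10 without it. Zdhhc8, a palmitoyltransferase, differed by -1.08 ± 0.16 (adjusted p = 0.00228) and -1.05. Arvcf, a catenin of cell junctions, differed by -1.15 ± 0.2 (adjusted p = 0.011) and -0.98, at signals close to the lower limit of the tested range. It read 3.69 to 4.49 in Df(16)A/+ and 4.5 to 5.39 in wt arrays, so that the wt arrays alone were enough to carry it past the filter. Dgcr2, an adhesion receptor, differed by -1.20 ± 0.16 (adjusted p = 7.92e-04) and -1.26.

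Among interval genes, the lowest adjusted p-values in the block fit belonged to Dgcr6, Ranbp1, Slc25a1 and Tango2. Dgcr6 read 8.39 and 8.29 in Df(16)A/+ arrays of run 2 and 8.18, 8.45 and 8.58 in those of run 3, against 9.54, 9.73 and 9.90 in wt. It fell to 38.7% of the wt signal with the block (-1.37 ± 0.094, limma, adjusted p = 1.45e-07), and its second probe set to 25.8%. Ranbp1, which acts with the GTPase Ran in nuclear transport, read 9.25 and 9.30 in run 2 and 9.43, 9.55 and 9.73 in run 3 of Df(16)A/+, against 10.24, 10.47 and 10.69 in wt. Its loss was -1.17 ± 0.087 with the block and -0.97 without it, and no array of the genotypes overlapped. Tango2, whose span holds the miR-185 gene, differed by -1.22 ± 0.11 (adjusted p = 2.14e-06) and -1.10, and Ufd1, a partner of the segregase VCP in protein degradation, by -1.14 and -1.16. Hira, a chaperone of histone H3.3 at the far end of the interval, differed by -0.84 ± 0.13 (adjusted p = 0.00477) and -0.81, and Trmt2a, a tRNA methyltransferase, by -0.96 and -1.06.

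Cldn5, the tight junction protein of brain endothelium, was the interval gene whose value shifted most with the run. It read 6.06 and 6.19 in Df(16)A/+ arrays of run 2 and 4.96, 5.54 and 5.91 in those of run 3, against 6.05, 7.04 and 7.57 in wt. The difference was -0.87 ± 0.32 with the block (limma, adjusted p = 0.726) and -1.32 ± 0.21 without it (adjusted p = 9.68e-04). The 8 measured endothelial markers outside the interval had a median difference of 0.182 with the block and -0.056 without it, and all 8 were lower in run 3 than in run 2 of Df(16)A/+ (median -0.234), with 0 called by limma in these 3 comparisons (0, 0 and 2 of 8 at an unadjusted p under 0.05). Their part in the Cldn5 values was not tested. Gp1bb (-0.86, adjusted p = 0.133), Ess2 (-0.77, 0.136) and 2510002D24Rik (-0.69, 0.41) also missed the call with the block and fell by 1.04, 0.75 and 0.83 without it. 4933432I09Rik differed by -0.08 and -0.17 and passed in neither fit.

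Among probe sets with 1 annotated gene outside the interval, the calls shared by both fits were rises of transcripts that hold microRNAs. The 3 probe sets with no single gene that were called in both fits were lower, with differences of -0.89, -0.95 and -1.0 with the block (limma, adjusted p = 2.14e-06, 0.0243 and 2.14e-06). Whether these 3 match interval genes was not checked. The 5 named genes called in both fits were all higher in Df(16)A/+, by 1.60 to 1.97-fold with the block. In each, all 10 Df(16)A/+ arrays lay above all 10 wt arrays, which held for 0.118% of all probe sets. The 5 were chosen by calls on these same arrays, so this separation is not further support for them. Genes with an annotated microRNA in their span made up 529 of the 10822 tested (4.89%), 5 of the 10 named genes outside the interval called with the block (0.156% of probe sets called), and 5 of the 5 called in both fits.

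A330023F24Rik, the noncoding precursor of miR-29b and miR-29c, read 9.61 and 9.57 in Df(16)A/+ arrays of run 2 and 9.30, 9.55 and 9.72 in those of run 3, against 8.33, 8.78 and 9.03 in wt. Both runs of Df(16)A/+ were alike and clear of wt. The rise was 0.83 ± 0.13 with the block (1.78-fold; limma, adjusted p = 0.00346) and 0.82 ± 0.071 without it (adjusted p = 1.52e-07).

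Lncppara, the noncoding transcript over let-7c-2 and let-7b, read 7.24 and 6.76 in Df(16)A/+ arrays of run 2 and 6.64, 6.89 and 7.35 in those of run 3, against 5.70, 5.97 and 6.56 in wt. The lowest Df(16)A/+ array was only just above the highest wt array. The rise was 0.98 ± 0.19 with the block (1.97-fold; limma, adjusted p = 0.028) and 0.95 ± 0.10 without it (adjusted p = 5.5e-06).

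Mir22hg, the host of miR-22, read 10.14 and 9.95 in Df(16)A/+ arrays of run 2 and 9.59, 9.80 and 10.06 in those of run 3, against 9.19, 9.33 and 9.58 in wt. The lowest Df(16)A/+ array and the highest wt array nearly touched. Its rise was 0.70 ± 0.11 with the block (limma, adjusted p = 0.004) and 0.48 ± 0.07 without it (adjusted p = 4.05e-04).

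C130071C03Rik, the noncoding precursor of miR-9-2, read 10.54 and 10.35 in Df(16)A/+ arrays of run 2 and 10.19, 10.29 and 10.41 in those of run 3, against 9.51, 9.76 and 9.97 in wt. The genotypes were well apart, with a rise of 0.68 ± 0.097 with the block (limma, adjusted p = 0.00174) and 0.58 ± 0.058 without it (adjusted p = 1.69e-06). A dimmer second probe set for this gene rose by 0.74 with the block (adjusted p = 0.00352) but differed by 0.19 without it (adjusted p = 0.257), and its run 3 minus run 2 difference within Df(16)A/+ was -0.67.

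Aopep is a protein-coding gene, an aminopeptidase, whose span holds the genes of miR-23b, miR-27b and miR-24-1. The dimmer of its 2 probe sets read 8.01 and 7.88 in Df(16)A/+ arrays of run 2 and 7.69, 7.96 and 8.32 in those of run 3, against 7.03, 7.15 and 7.5 in wt. No arrays overlapped, and the rise was 0.73 ± 0.14 with the block (limma, adjusted p = 0.024) and 0.74 ± 0.076 without it (adjusted p = 2.32e-06). The brighter Aopep probe set differed by 0.32 with the block (adjusted p = 0.849) and by 0.23 without it (adjusted p = 0.0909), so that the probe sets of this gene disagree.

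None of these 5 genes was called with the block without Df(16)A/+ replicate 1. That leaves 1 Df(16)A/+ array in run 2, and the differences were 0.74 for Lncppara, 0.82 for A330023F24Rik, 0.67 for Aopep, 0.61 for Mir22hg and 0.59 for C130071C03Rik, with limma adjusted p of 1, 0.151, 0.671, 0.317 and 0.187. Without replicate 2, A330023F24Rik (0.85, adjusted p = 0.0548) and Aopep (0.80, adjusted p = 0.117) missed the call, while Mir22hg (adjusted p = 0.0298), C130071C03Rik (0.0129) and Lncppara (0.0463) did not. Without a block, all 5 were called whichever single array was left out. Lncppara also missed the call with the block without wt replicate 2 or 8. It missed it too with no filter (adjusted p = 0.0617), after quantile normalization (0.0514), after median centring (0.0827), with a chip lot block (0.0604) and in run 2 alone (0.0992). Aopep missed it after median centring (0.159) and in run 2 alone (0.0558). With the replicate number as a further block, all 5 missed it (limma, adjusted p = 0.0898 to 0.272).

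Across a list of noncoding primary microRNA transcripts, 13 of 23 were measured. With the block 4 were higher and 0 lower (0.0554% of all genes were called higher and 0.129% lower), with a median difference of 0.24, against 0.003 over all genes. Without a block 6 were higher and 0 lower (2.11% and 1.55% of all genes), with a median of 0.387, against 0.004 over all genes. The mean signal of the 13 was 8.94 to 9.15 in Df(16)A/+ arrays and 8.51 to 8.75 in wt arrays, without overlap. This list was chosen with earlier results of these data known. Its mean includes the 4 called transcripts described above, so it is not separate support for them.

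The members beyond the 4 varied. Dleu2, which holds miR-15a and miR-16-1, rose without a block by 0.47 in its brighter probe set (limma, adjusted p = 0.0176) and by 0.86 in its other one (3.64e-05), and differed by 0.69 (adjusted p = 0.409) and 0.81 (0.149) with the block. Mir124a-1hg, a host of miR-124, rose by 0.39 without a block (adjusted p = 0.046) and differed by 0.24 with it. Mirg, in the imprinted microRNA cluster of chromosome 12, passed in neither fit in its brighter probe set (0.14 with the block, 0.31 without it), while its other probe set rose by 0.85 without a block (adjusted p = 9.16e-06), with 0.81 in the block fit (adjusted p = 0.0919). Ftx, Mir9-3hg, Mir124-2hg, Mir99ahg and Meg3 differed by 0.65, 0.19, 0.15, 0.02 and -0.06 with the block and by 0.21, 0.18, 0.10, 0.09 and -0.02 without it, and none of these passed. Rian, from the same imprinted cluster as Mirg, took opposite signs in the fits (-0.57 with the block, 0.57 without it), and was 1.45 higher in run 3 than in run 2 of Df(16)A/+.

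Among the proteins of microRNA processing and silencing other than Dgcr8, calls were few. Of 23 measured, 0 were called by limma with the block (0 at an unadjusted p under 0.05). Without it Xrn2, a nuclear exonuclease, rose by 0.58 (limma, adjusted p = 0.00912; 0.11 with the block) and Tnrc6c, a partner of Argonaute, fell by 0.21 (adjusted p = 0.0497; -0.05 with the block), where 2.11% of all genes were called higher and 1.55% lower. The median of the list was 0.013 with the block and -0.022 without it.

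Emc10, part of a complex that inserts proteins into the endoplasmic reticulum and studied as a target of miR-185, read 11.57 and 11.49 in Df(16)A/+ arrays of run 2 and 11.49, 11.57 and 11.77 over all 10, against 10.92, 11.09 and 11.42 in wt. No arrays overlapped. Its difference was 0.39 ± 0.093 with the block (1.31-fold; limma, adjusted p = 0.149), and it rose by 0.47 ± 0.055 without it (1.38-fold, adjusted p = 2.15e-05). Of the other genes studied downstream of this deletion, the kinase Gsk3b differed by -0.43 with the block (adjusted p = 0.906) and 0.28 without it (0.335), with a run difference of 0.89, and the calcium pump Atp2a2 differed by -0.09 and 0.13.

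In all, 25 probe sets had every Df(16)A/+ array above every wt array, and 30 had every Df(16)A/+ array below (0.118% and 0.142%). Of the 30 below, 25 belong to interval genes and 3 have no single gene. The others are Snhg4, a host of small nucleolar RNAs (-0.41 with the block, limma adjusted p = 0.345, and -0.43 without it, 3.63e-04), and Atp5k, an ATP synthase subunit. The 30 include 20 genes, and 3 of these hold a microRNA: Tango2 and Dgcr8 of the interval, and Snhg4. Some interval probe sets lay near the lower limit of the tested range, such as 1 of Dgcr2 (3.65 to 4.11 in Df(16)A/+, 4.14 to 4.62 in wt) and 1 of Zdhhc8 (3.43 to 5.04 and 5.06 to 5.73). The wt arrays alone were enough to carry these past the filter. The 25 above include 23 genes, and 7 of these hold a microRNA (4.89% of all genes tested do): the 5 above, Dleu2 and Mirg. Dleu2 and Mirg are here by their dimmer probe sets, which were not called with the block. Kbtbd11, Cpeb4 and Epas1, chosen here after their values were seen, were among the rest: they rose by 1.18, 0.92 and 0.83 without a block and differed by 0.65, 0.51 and 0.62 with it (adjusted p = 0.777, 0.826 and 0.322). Cpeb4 is a regulator of translation, and Epas1 is a hypoxia-inducible transcription factor.

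Genes on chromosome 16 within 10 Mb of the interval kept their level in most cases. Of 164 listed, 104 were measured, and with the block 0 were called by limma in either direction (6 at an unadjusted p under 0.05; 0.0554% of all genes were called higher and 0.129% lower). Clec16a and Grin2a had the largest differences. Clec16a, an endosomal protein of mitophagy, read 7.76 and 7.47 in Df(16)A/+ arrays of run 2 and 7.21, 7.85 and 8.33 in those of run 3, against 6.30, 6.68 and 7.07 in wt, with no overlap. Its difference was 0.89 ± 0.20 with the block (limma, adjusted p = 0.134), and it rose by 1.06 ± 0.11 without it (2.09-fold, adjusted p = 5.08e-06). Grin2a, an NMDA receptor subunit, read 5.87 and 4.99 in run 2 and 4.99, 5.66 and 6.73 in run 3 of Df(16)A/+, against 4.03, 4.76 and 4.99 in wt. The wt signals were close to the lower limit of the tested range, and 1 array of run 2 read no higher than the highest wt array at this rounding. The difference of Grin2a was 0.78 ± 0.36 with the block (adjusted p = 0.853), and it rose by 1.01 ± 0.21 without it (adjusted p = 0.00644).

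Without a block 4 of the 104 were higher and 4 lower (2.11% and 1.55% of all genes), and beside these 2 genes the changes were small: Senp2 and Etv5 rose by 0.20 each, and Emp2, Lztr1, Ccdc74a and Top3b fell by 0.31, 0.24, 0.23 and 0.14. After centring each array on its median, 4 were higher and 1 lower. The median of the 104 was 0.001 with the block and 0.023 without it.

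**Figure D2:**
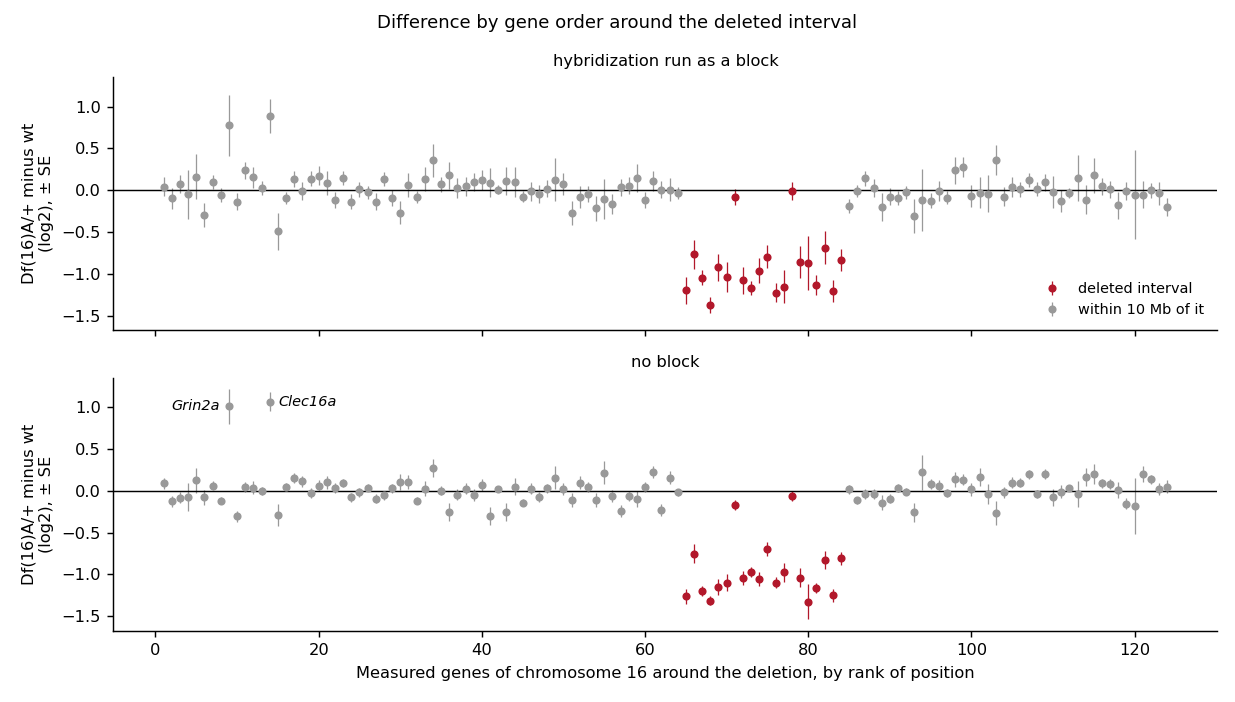
Log2 difference, Df(16)A/+ minus wt, of the 124 measured genes in and around the interval in chromosome order, with the run as a block (upper panel) and without a block (lower panel). The 20 interval genes form a step down to a median of -1.0 and -1.05, and its neighbours lie around 0. Clec16a (0.89 and 1.06) and Grin2a (0.78 and 1.01) stand above them, and neither was called with the block.

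The 1342 probe sets called outside the interval without a block were mostly small changes in one direction: 1098 were higher and 244 lower, and 192 of all 1369 changed by at least 1.5-fold. Called probe sets with no single gene are counted among the 1342, whether or not they match interval genes. The 1098 higher ones, chosen on this difference, had a median of 0.355 without a block, 0.161 with it and 0.226 in run 3 minus run 2 of Df(16)A/+, and 5 of them were called with the block. The 244 lower ones had medians of -0.271, -0.082 and -0.206, and 3 of them, each with no single gene, were called with the block. These comparisons share arrays. By gene, 228 were higher and 168 lower without a block. The split depended on the scaling: 80.2% of calls were higher as deposited, 63.5% after quantile normalization and 93.8% after centring each array on its median. With the block, 33.3% were higher, against 22.6% and 16.7% under those scalings.

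**Figure D3:**
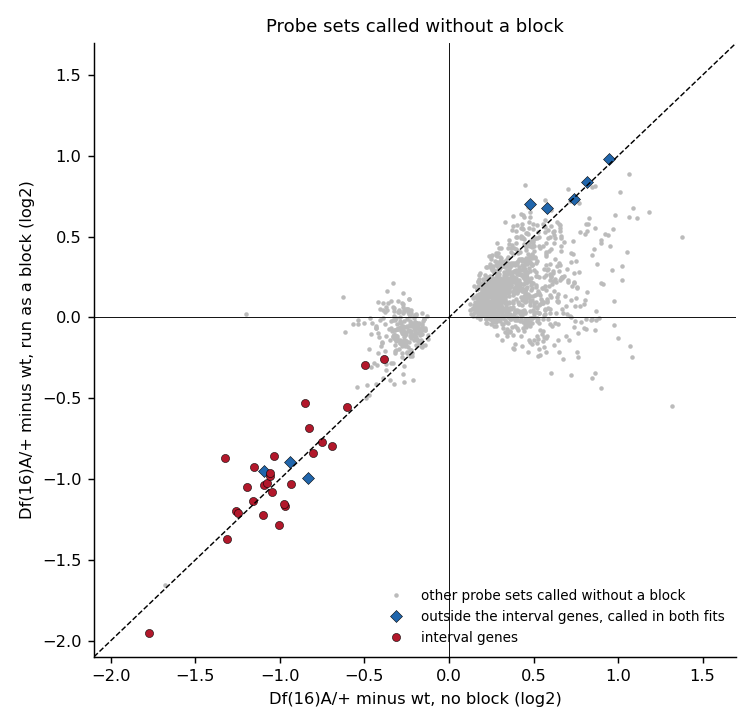
Log2 difference, Df(16)A/+ minus wt, of the 1369 probe sets called without a block, with that difference on the x axis and the difference with the run as a block on the y axis; interval genes are red, other probe sets called in both fits are blue diamonds, and the rest are grey. Interval genes and the 8 blue diamonds lie near the diagonal, while the 1098 higher ones have a median of 0.355 on x and 0.161 on y. The diamonds were chosen by calls on both axes and the 1098 by x alone, so this contrast follows in part from the choice.

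Within Df(16)A/+, run 3 differed from run 2 (8 against 2 arrays) at 73 probe sets (0.345%), 56 higher (0.265%) and 17 lower (0.0804%), none of them annotated to an interval gene. Malat1, an abundant nuclear noncoding RNA, read 12.09 and 12.82 in Df(16)A/+ arrays of run 2 and 13.70, 13.90 and 14.34 in those of run 3, against 12.42, 12.78 and 13.21 in wt. The run 2 arrays of Df(16)A/+ overlapped wt, and all of run 3 lay above. It rose by 0.87 without a block (limma, adjusted p = 0.0198), differed by -0.34 with it (0.906), and was 1.48 higher in run 3 than in run 2 (0.0153). Without Df(16)A/+ replicate 1, which leaves 1 array in run 2, 0 probe sets differed between the runs, and without replicates 5, 6, 7, 8, 9 and 10 in turn 9, 9, 33, 126, 15 and 41 did.

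Dlg4, the postsynaptic scaffold PSD-95, read 8.98 and 9.43 in Df(16)A/+ arrays of run 2 and 9.88, 10.11 and 10.37 in those of run 3, against 8.91, 9.26 and 9.38 in wt. All of run 3 and 1 of the 2 arrays of run 2 stood above wt: the difference was 0.72 without a block (limma, adjusted p = 0.00354) and 0.00 ± 0.13 with it, and run 3 exceeded run 2 by 0.91 (adjusted p = 0.0306). Cntnap1, which builds the paranodal junction beside the node of Ranvier, read 5.96 and 5.69 in run 2 and 6.42, 6.75 and 6.95 in run 3 of Df(16)A/+, against 5.03, 5.61 and 5.96 in wt. It rose by 0.97 without a block (adjusted p = 8.63e-04) and differed by 0.29 with it (adjusted p = 0.933). Creg2, the channel Trpc5 and the chromosome protein Smc6 rose by 0.71, 0.80 and 0.62 without a block and differed by -0.14, 0.08 and -0.17 with it.

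Called with the block but not without it were 7 probe sets, among them 5 genes beside the second probe set of C130071C03Rik, and their values came from the 2 Df(16)A/+ arrays of run 2 alone. Cntn2, an adhesion protein of axons, read 5.45 and 5.62 there in the dimmer of its 2 probe sets and 6.35, 6.63 and 6.95 in run 3, against 6.10, 6.26 and 6.36 in wt. It fell by 0.69 with the block (limma, adjusted p = 0.0188) and differed by 0.19 without it, and its brighter probe set differed by -0.29 and -0.11. Cdyl, a chromatin corepressor, in the dimmer of its probe sets read 7.62 and 7.5 in run 2 and 6.79, 6.96 and 7.11 in run 3 of Df(16)A/+, against 6.83, 7.11 and 7.62 in wt. The wt array that reached 7.62 was the single one of run 1, and the rise was 0.47 with the block (adjusted p = 0.0276) with -0.05 without it.

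Senp1, a SUMO protease, Cyb561d1 and Supt20 rose by 0.38, 0.44 and 0.79 with the block and differed by 0.11, 0.06 and 0.29 without it. Their run 3 minus run 2 differences within Df(16)A/+ were -0.32, -0.47 and -0.62. The call of Supt20 (limma, adjusted p = 0.0484) held in 4 of the 20 fits that left out 1 array each, and its brighter probe sets differed by 0.04 and 0.06.

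The largest run differences within Df(16)A/+ were in Islr2 (1.68), Malat1 (1.48), Rian (1.45), the choroid plexus potassium channel Kcnj13 (1.35) and Sox8 (1.25) upwards and Zic5 (-1.38) downwards. Of these, Malat1 and Zic5 passed (limma, adjusted p = 0.0153 and 0.038). Islr2 rested on Df(16)A/+ replicate 1, at 6.10, below the 7.80 of replicate 2 and the 8.02 to 9.19 of run 3.

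Synaptic genes were called without a block only. Of 23 postsynaptic scaffolds and signalling proteins, 5 rose and 1 fell without a block (2.11% of all genes were called higher and 1.55% lower), with a median of 0.114, against 0.004 over all genes, and 0 were called by limma with it (0 at an unadjusted p under 0.05), with a median of 0.034. Beside Dlg4, Cnih2, an auxiliary subunit of AMPA receptors, rose by 0.30 (limma, adjusted p = 0.00529), the scaffold Dlgap3 by 0.29 (0.0285) and the synaptic adhesion protein Lrrtm2 by 0.27 (0.0224). Their block values were 0.15, 0.06 and 0.21. Of 23 presynaptic genes, 2 rose without a block, Nrxn2 among them (0.40, adjusted p = 0.0167; -0.02 with the block). With the block 0 were called by limma, and 4 with the block and 7 without it had an unadjusted p under 0.05. Their median was 0.079 without a block, where 21 of 23 were above 0, and -0.034 with it, where 7 were. Of 20 glutamate receptors Grin2a was the single call, and of 15 GABA receptor and synthesis genes 0 were called by limma in either fit (0 with the block and 2 without it at an unadjusted p under 0.05).

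Excitability genes had 1 to 3 calls a list without a block, against 2.11% of all genes higher and 1.55% lower. Of 13 calcium channel subunits Cacnb2 rose by 0.26 without a block (limma, adjusted p = 0.0416), and of 16 sodium and potassium channels Kcnma1 rose by 0.27 (0.0431) in its brightest probe set. The mean over all Kcnma1 probe sets did not keep that direction (-0.00). Of 13 genes of the axon initial segment and paranode, 2 rose and Ank3, the ankyrin of the initial segment, fell by 0.17 without a block (adjusted p = 0.0211), while the mean over all its probe sets was 0.12. With the block 0 of the members of these 3 lists were called by limma in their brightest probe sets (0, 0 and 2 at an unadjusted p under 0.05).

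A few neuronal markers rose without a block, where 2.11% of all genes were called higher, and 0 were called by limma with it (0 defining, 1 dentate and 1 interneuron marker at an unadjusted p under 0.05). Of the 7 defining markers, with a median of 0.194 without a block and 0.062 with it, Slc17a7, the vesicular glutamate transporter of excitatory cells, rose by 0.38 (limma, adjusted p = 0.00106; 0.15 with the block) and Neurod2 by 0.25 (0.0439; 0.14). Of 11 dentate gyrus markers, Tdo2 rose by 0.32 (0.0255) and Prox1, the granule cell factor, by 0.27 (0.0331) without a block, with 0.32 and 0.14 with it. Of 13 interneuron markers, the neuropeptide gene Npy (0.26, adjusted p = 0.00883) and Reln (0.26, 0.0385) rose without a block, with 0.21 and 0.22 with it. Of 6 CA1, 5 CA2 and 8 CA3 markers 0 were called by limma in either fit and 0 had an unadjusted p under 0.05, with medians between -0.099 and 0.105.

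Single glial and vascular markers fell without a block, where 1.55% of all genes were called lower, and 0 were called by limma with it (3 oligodendrocyte, 2 precursor, 1 microglial and 1 mural or meningeal marker at an unadjusted p under 0.05). Opalin, a myelin protein, fell by 0.49 (limma, adjusted p = 0.0202; -0.50 with the block), Enpp6 of oligodendrocyte precursors by 0.32 (0.0433; -0.15), C1qb of microglia by 0.43 (0.0417; -0.05) and Pdgfrb of pericytes by 0.47 (0.0334; -0.00). These were 1 call of 14 oligodendrocyte, 1 of 7 precursor, 1 of 10 microglial and 1 of 13 mural and meningeal markers, and after centring each array on its median Pdgfrb was the 1 still called among these lists. The other 13 oligodendrocyte markers did not pass, but most of the list lay below 0: 1 of 14 was above 0 with the block (median -0.164) and 2 without it (median -0.107), and the mean of the list was 10.41 to 10.78 in Df(16)A/+ arrays and 10.51 to 11.08 in wt arrays. Of the 13 mural and meningeal markers, 1 was above 0 without a block (median -0.175; 5 at an unadjusted p under 0.05) and 4 with it (median -0.03).

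Choroid plexus markers, a tissue next to the hippocampus, varied between arrays of both genotypes: their mean signal was 5.26 to 9.62 in Df(16)A/+ arrays and 4.77 to 9.99 in wt arrays. All 8 measured had differences below 0 in both fits (medians -0.675 with the block and -0.36 without it), and 0 were called by limma or passed an unadjusted p of 0.05 in either. Of 13 astrocyte, 5 striatal and 6 thalamic markers 0 were called by limma in either fit (0, 1 and 0 with the block, and 1 of each list without it, at an unadjusted p under 0.05), and of 7 neocortical markers Fezf2 rose by 0.21 without a block (limma, adjusted p = 0.0417; 0.16 with it). None of the 3 listed blood markers was measured.

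Among housekeeping groups, 4 of 45 cytosolic ribosomal proteins fell without a block (1.55% of all genes were called lower), such as Rpl37 (-0.29, limma adjusted p = 0.0198) and Rps28 (-0.16, 0.0351), and 1 was called after median centring and 7 after quantile normalization. The list's median was -0.078 without a block, where 5 of 45 were above 0, and -0.037 with it, where 6 were. Of 79 oxidative phosphorylation genes 3 fell, such as Atp5k (-0.18, adjusted p = 0.0183), and of 75 mitochondrial ribosomal proteins 1 fell, with medians of -0.029 and -0.006. After median centring 0 of either list were called. Of 21 chaperones Cryab fell by 0.39 (adjusted p = 0.00601; -0.15 with the block). Of 15 activity-regulated genes the pentraxin Nptx2 rose by 0.31 (adjusted p = 0.00434; 0.24 with the block), and Npas4 differed by -0.76 without a block (adjusted p = 0.12) and -0.03 with it. The median of that list was -0.186 without a block, 0.068 with it and -0.466 between runs.

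Of 10 genes of proline and citrate metabolism outside the interval, 16 of Wnt and Akt signalling and 15 that respond to glucocorticoids, 0 were called by limma in either fit (1, 0 and 0 with the block, and 1, 2 and 4 without it, at an unadjusted p under 0.05). Among the largest falls outside the interval without a block, some had the same size in both fits. Zfp949 fell by 0.48 without a block and differed by -0.48 with it, and Nipal4 and Cdc42ep2 by -0.54 and -0.48 against -0.43 and -0.42. Ninl, Trim59 and Gt(ROSA)26Sor fell by 0.62, 0.61 and 0.54 without a block and differed by 0.12, -0.09 and -0.02 with it.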

How the data were processed

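Hippocampal RNA of 20 samples (10 Df(16)A/+, 10 wt) was hybridized to Mouse430_2 arrays. Per the submitters' processing notes, the deposited values are log2 signals from GCRMA, which corrects background by probe sequence, normalizes by quantiles and summarises probes. Its settings and the set of arrays it was run on: not given in the sources used here. Sequencing depth has no counterpart on arrays, so the number of arrays limits the precision. Groups were taken from titles, and runs and chip lots from the deposited hybridization records.

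Of 45101 probe sets, 64 controls were left out. The supplied array annotation gave 34945 of the rest 1 gene, 932 several and 9160 none. Chromosomes, microRNA spans (either strand) and microRNA sequences came from RefSeq tables of GRCm38.p6. Probe sets above 4 in at least 10 arrays were fitted by lmFit and eBayes of limma 3.58.1 under R 4.3.3 (two-sided), with the run as a fixed block, without a block, and between runs 3 and 2 within Df(16)A/+. The scripts were tested on simulated data. RNA quality was compared by permutation (scipy 1.17.1).

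The members and gene lists were chosen with earlier results of these data known. Named genes were every measured interval gene, every gene called with the block, the 10 largest rises and falls called without it outside the interval, called genes within 10 Mb, called primary microRNA transcripts, genes studied downstream, up to 4 members of each list with the smallest p without the block, and the 10 largest run differences. Genes named for complete separation alone were chosen after their values were seen.

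Alternatives were no filter, a filter at 6, quantile normalization, median centring, a robust variance trend, array weights, replicate, random-run and lot blocks, run 2 alone, gene means and leaving out each array.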

Additional observations from a re-analysis of the deposited data

Results flagged for a closer look

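Of 240 groups of 10 arrays examined (both genotypes of each named probe set), 20 had 1 array apart from the others by Dixon's test. Chance gives about 1 such array in 20 groups, and the groups share arrays.

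Among interval genes, Df(16)A/+ replicate 10 was low for Rtn4r (6.12) and for a dim Trmt2a probe set (4.46), Df(16)A/+ replicate 6 was low for the second Ufd1 probe set (7.61), and Df(16)A/+ replicate 7 was high for Txnrd2 (5.59). In wt, replicate 3 was low for Prodh (7.61) and replicate 6 was high for Tango2 (9.17).

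Among transcripts that hold microRNAs, Df(16)A/+ replicate 4 was high for Aopep (8.32), Df(16)A/+ replicate 1 was low for Rian (8.69, against 10.21 for the next array), and wt replicate 6 was high for Mir99ahg (6.57). Df(16)A/+ replicate 1, one of the 2 arrays behind every value with the block, was also low for Gsk3b (9.84) and Islr2 (6.10).

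The single wt array of run 1, replicate 9, was high for Cdyl (7.62), Emp2 (7.5) and Cacnb2 (9.39). Other wt arrays apart from their group were replicate 3 for Senp1 (4.87) and Reln (9.97), replicate 6 for C1qb (11.66) and replicate 2 for Kcnj13 (5.11). In Df(16)A/+, replicate 8 was low for a probe set with no single gene, lower in both fits (8.45), and replicate 3 was high for Zfp949 (6.21).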

How the results depend on the processing

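The 33 calls of the block fit became 84 with array weights, 20 with the replicate block, 64 with the run as a random block, and 15 (without Df(16)A/+ replicate 1) to 40 (without Df(16)A/+ replicate 2) when single arrays were left out. Interval genes called lower with the block were 14, 6 with the replicate block, and 7 to 14 with single arrays left out. Replicate numbers did not pair the samples: same-number correlations were -0.144 to 0.312. Of the 33 probe sets, 30 stayed called with no filter, 27 after quantile normalization, 23 after median centring, 32 with the lot block, 12 with the replicate block and 23 in run 2 alone, and none changed direction. With the replicate block the 5 genes that hold microRNAs missed the call (adjusted p = 0.0898 to 0.272).

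Without a block, 1369 became 812 with no filter, 2335 with array weights, 64 with the run as a random block, 31 in run 2 alone, 436 with the lot block and 192 at 1.5-fold. Leaving out single arrays gave 785 (wt replicate 2) to 2316 (Df(16)A/+ replicate 2). Counts were 2190 without Df(16)A/+ replicate 1, 801 without 3 and 898 without 10, and 834, 906 and 792 without wt replicates 4, 5 and 10. Interval genes lower without a block were 18 to 19.

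Run 3 against run 2 within Df(16)A/+ gave 73, 22 with no filter, 1131 with array weights, and 0 to 126 with single arrays left out. Reversed in run 2 alone were Cntn2 (-0.69), Smc6 (-0.17), Creg2 (-0.14), Malat1 (-0.34 and -0.43), the second Dlg4 probe set (-0.24), Nrxn2 (-0.02), Ninl (0.12), Lztr1 (0.03), Ccdc74a (0.01) and Mrps21 (0.03). Over gene means, Kcnma1 (-0.00) and Ank3 (0.12) reversed. The causes were not tested.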
